A study of Homo sapiens with 8 samples.

Results

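Forkhead genes encode transcription factors that share a winged-helix DNA-binding domain, and FOXA1 is the member best known in luminal breast cells. The family was taken as every row of the count table whose symbol is FOX followed by a subfamily letter from A to S and a number, with an optional letter and digit after it. The rule found 42 of the 30434 rows, of which 40 are annotated as protein-coding genes and 2, FOXO1B and FOXO3B, as pseudogenes. The question was which paralogues moved when FOXA1 was depleted.

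Gene-level counts came from mRNA sequencing of SKBR3, a human breast cancer line with amplified ERBB2. There were 4 control libraries, labelled wild type, and 4 libraries of a FOXA1 knockdown line made with lentiviral short hairpin RNAs against FOXA1. Cells of both groups were kept in DMEM with GlutaMAX, 10% fetal bovine serum and penicillin and streptomycin. The labels do not say whether the control cells received a vector, whether the knockdown line is a clone, or whether replicates were separate cultures, so the p-values measure the spread between these libraries, which may be technical.

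Library totals ran from 19087878 to 23786684 counts, and 16430 genes passed the filter on low counts. Spearman correlations across genes were 0.995 to 0.9962 within controls, 0.9955 to 0.9959 within knockdowns and 0.876 to 0.8783 between the groups. Control replicate 3 was the least like its group: its chi-square per degree of freedom over genes was 4.81 to 6.21 against each other control, and 2.16 to 2.38 between the other controls. All 11 luminal and ERBB2 markers of SKBR3 were at or above 1 CPM (counts scaled to library totals of 1000000) in both groups, and their summed level was 19616 to 21786 CPM in control and 12641 to 13581 CPM in knockdown libraries. Its members went both ways: ERBB2 (7298 to 1338 CPM), KRT7 and KRT19 fell, while KRT8 (4513 to 5612 CPM), KRT18 and EPCAM rose. In bulk libraries such as these, fewer cells that express a gene and less RNA per cell cannot be told apart. Library totals were first adjusted for composition, and 3 counts in a library, equal to 0.123 to 0.153 CPM, is treated as the floor.

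FOXA proteins open compacted chromatin at enhancers, and in luminal breast cells FOXA1 is the factor that lets steroid receptors reach many of their sites. FOXO proteins are held in the cytoplasm when insulin or ERBB-family signalling activates AKT, and they induce cell cycle inhibitors and stress genes when it is low. FOXM1 drives genes of late cell cycle phases, FOXP and FOXK proteins mostly repress, and FOXC, FOXD, FOXI and FOXN proteins act in tissue specification.

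The part of these proteins that reads the base sequence is an alpha helix laid in the major groove. The 24 bases that encode its core were sought in the annotated transcripts (GENCODE, GRCh38) with a residue pattern that FOXA1 itself matches. The pattern was met by 35 of the 42 members, and not by the FOXP genes, FOXH1, FOXR1 or FOXO1B. It fixes several residues as in FOXA1, so it limits how far a matching member can differ. The bases are shown for FOXA1, its closest paralogues and several members described below, to show which differ from FOXA1 within that pattern. Capitals mark bases that differ from FOXA1.
FOXA1: aactccatccgccactcgctgtcc
FOXA2: aactccatccgccactcgctCtcc
FOXA3: aactccatTcgccactcgctgtcT
FOXC1: aacAGcatccgccacAACctCtcG
FOXD1: aacAGcatccgccacAACctCtcG
FOXI3: aactccatccgccacAACctgtcG
FOXN4: aactcGGtGcgGcacAACctgtcT
FOXO3: aactccatccgGcacAACctgtcA
FOXO1: aaTtcAatTcgTcaTAATctgtcc
FOXM1: aactccatccgccacAACctTtcc

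FOXA2 differed from FOXA1 at 1 of these bases and FOXA3 at 2, with 0 encoded residues changed in either. FOXC1, FOXD1, FOXI3, FOXO3, FOXO1 and FOXM1 each differed by 1 residue, and FOXN4 by 2. FOXC1 and FOXD1 carried the same bases at this stretch, and so did FOXC2, FOXD4, FOXL1 and the FOXD4L copies. FOXO4, not shown, differed from FOXA1 at 4 bases and by 1 residue.

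Of the 42 members, 21 passed the filter and were tested, and 21 were too low. Among those tested, 17 (81.0%) passed an adjusted p of 0.05 by edgeR's quasi-likelihood test, with 8 higher and 9 lower in the knockdown, against 77.1% of all genes tested, so the count of members is near the background. The background was 39.4% of genes higher and 37.7% lower. A change of at least 2-fold was called for 8 members, 5 higher and 3 lower, and for 28.3% of all genes (14.9% higher and 13.4% lower). FOXC1, FOXD1, FOXI3 and FOXN4 passed the filter only through the knockdown libraries, and FOXD4 only through the control libraries, and so had to differ, for which reason no share over the tested members is read as a result. Groups of libraries did not overlap for 13 of the 21, against 72.0% of all genes. Without control replicate 3 the calls were 9 higher and 9 lower, with 6 and 3 of them at least 2-fold, since FOXD4L5 then passed the filter.

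**Figure D1:**
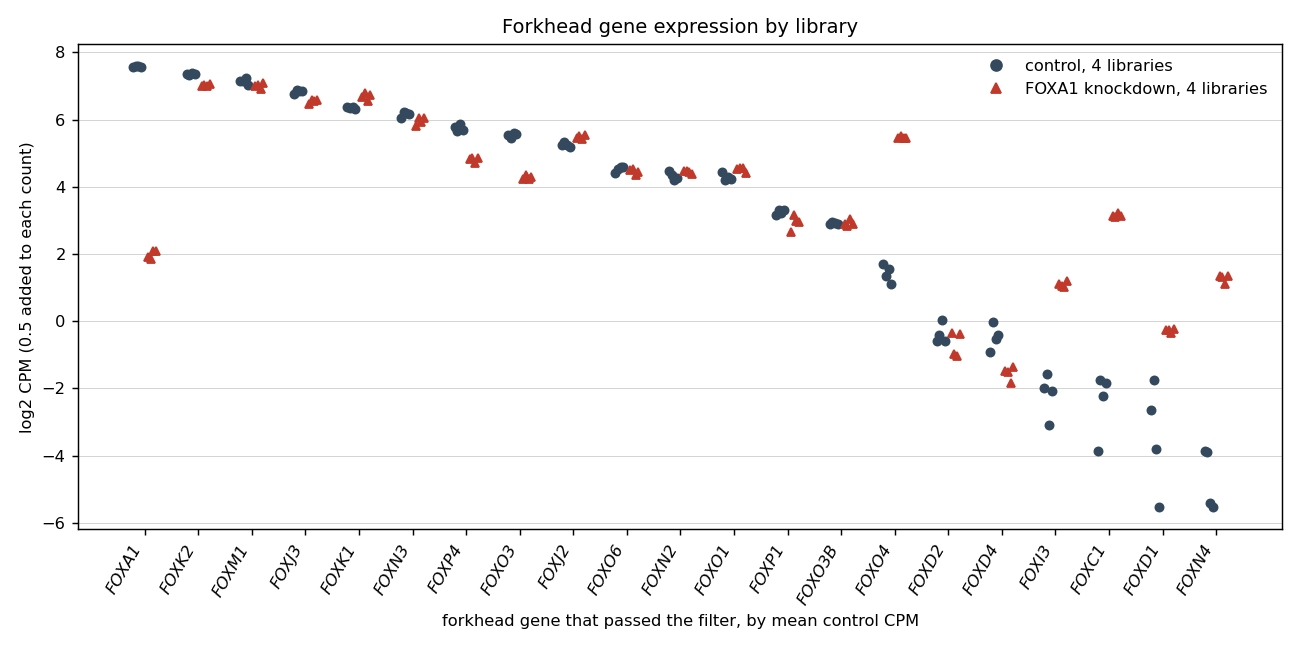
Expression of the 21 tested forkhead genes in each library, as log2 CPM with 0.5 added to each count (vertical axis), ordered by mean control CPM (horizontal axis), with control libraries as circles and FOXA1 knockdown libraries as triangles. FOXA1 drops from the top of the family to 3.95 CPM, while FOXO4 rises to 44.4 CPM and FOXC1, FOXN4, FOXI3 and FOXD1 rise from near the floor.

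FOXA1 (ENSG00000129514.8; chr14:37589984-37596059, minus strand, GRCh38) was measured first, since it is the targeted gene. Its level was 191, 192, 193 and 189 CPM in the control libraries and 3.78, 3.56, 4.22 and 4.25 CPM in the knockdown libraries. All 4 knockdown libraries were low and the groups did not overlap. The log2 fold change was -5.60 (SE 0.063, adjusted p = 3.18e-30), which left 2.06% of the control level. Neither of the other FOXA genes came up to a comparable level. FOXA2, the paralogue of liver and gut endoderm, had 0 counts in every control library and 2, 5, 3 and 3 in the knockdown libraries. These counts did not overlap with control but lay near the floor, and FOXA2 was removed by the filter. With no filter on low counts FOXA2 was called higher (edgeR adjusted p = 0.00091). FOXA3 had 0, 0, 1 and 1 counts in control and 0, 0, 0 and 1 in knockdown libraries, so that both groups were at the floor. The transcripts of FOXA1 and FOXA2 shared few 31-base words (64 of the 4006 in FOXA1, or 2.49% of those in FOXA2).

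FOXA1 acts with partner transcription factors and cofactors. Of 19 tested genes of the partner list, 8 rose, 9 fell and 2 did not pass, shares near the 39.4% higher and 37.7% lower over all genes, and the median log2 fold change was -0.05 against 0.02 over all genes. Among those that rose, GATA3, a luminal lineage factor, went from 4.28 to 35.8 CPM (log2 fold change 3.07). NR2F2, an orphan nuclear receptor, went from 0.687 to 15.9 CPM (log2 fold change 4.51, adjusted p = 7.76e-20). SPDEF, an ETS factor of secretory epithelium, fell from 200.1 to 0.397 CPM (log2 fold change -8.94). It passed the filter only through the control libraries and so had to differ. TRPS1, a GATA-type repressor, fell from 414 to 6.54 CPM (log2 fold change -5.98, adjusted p = 9.44e-26), and XBP1, a factor of the unfolded protein response, from 686 to 54.9 CPM (log2 fold change -3.65, adjusted p = 1.48e-29).

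The 5 members that rose at least 2-fold were all low in the control libraries. FOXO4 (chrX:71096197-71103535, plus strand), a FOXO factor under AKT control, reached the highest level of these. Its level was 3.20, 2.54, 2.94 and 2.15 CPM in control libraries and 44.1, 45.9, 43.8 and 43.7 CPM in knockdown libraries. Every knockdown library lay far above every control library, and FOXO4 was the one of the 5 whose control libraries passed the filter by themselves. The rise was 16.4-fold (log2 fold change 4.04, SE 0.126, adjusted p = 3.92e-24).

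FOXC1 (chr6:1609972-1613897, plus strand), a factor of mesenchyme and of basal-like breast cancers, had 1, 6, 4 and 6 counts in control libraries and 205, 210, 184 and 189 in knockdown libraries. All knockdown libraries were high and the groups did not overlap. Mean levels were 0.191 ± 0.104 and 8.85 ± 0.347 CPM (SD, n = 4 each), a 46.2-fold rise (log2 fold change 5.48, SE 0.492, adjusted p = 1.57e-18). FOXN4 (chr12:109277979-109309220, minus strand), a factor of retinal and spinal progenitors, had 1, 1, 0 and 0 counts in control and 59, 60, 42 and 55 in knockdown libraries. Its control libraries were all at the floor, so the change is given as a bound of at least 17.7-fold higher (adjusted p = 1.18e-13), counted against 3 counts per library. Both FOXC1 and FOXN4 passed the filter only through the knockdown libraries and so had to differ, and their adjusted p-values add no separate support.

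FOXI3 (chr2:88446787-88452656, minus strand), a factor of ectodermal placodes, had 5, 7, 2 and 5 counts in control and 50, 50, 39 and 49 in knockdown libraries, and the groups did not overlap. It rose 9.83-fold (log2 fold change 3.26, SE 0.324, adjusted p = 4.51e-11) and ended at 2.10 ± 0.121 CPM. FOXD1 (chr5:73444827-73448527, minus strand), a factor of kidney stroma, had 3, 6, 1 and 0 counts in control and 19, 20, 15 and 18 in knockdown libraries. The knockdown libraries were all higher, at 7.05-fold (log2 fold change 2.77, SE 0.816, adjusted p = 3.64e-06), although the level reached was only 0.805 ± 0.0298 CPM. The size of this change rests on few control counts: the log2 fold change was 3.62 without control replicate 2 and 2.34 without control replicate 4. FOXI3 and FOXD1 also passed the filter only through the knockdown libraries and so had to differ, and the same limit holds for their adjusted p-values.

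Markers of cell types other than luminal epithelium moved beside these rises. The summed basal and myoepithelial markers were 10.8 to 12.9 CPM in control and 13.2 to 15.2 CPM in knockdown libraries, with the basal factor TP63 at 4, 4, 2 and 3 counts in control and 176, 191, 170 and 162 in knockdown libraries. In the same list KRT17 went from 22 to 35 counts down to 2 to 7, ACTA2 from 24 to 36 down to 1 to 2, and KRT14 was at 0 to 1 and 4 to 7. MYLK, the highest of this list in control, fell from 8.39 to 4.86 CPM. The 6 fibroblast markers with a row summed to 5.99 to 7.54 CPM in control and 11.2 to 12.7 CPM in knockdown libraries. COL3A1 was at 0 to 1 and 90 to 104 counts, and PDGFRB rose from 0.410 to 2.83 CPM. COL1A1, the highest of these in control, fell from 5.38 to 4.32 CPM, while COL1A2 and DCN stayed at the floor. Leukocyte markers summed to 4.76 to 5.85 CPM in control and 0.693 to 1.66 CPM in knockdown libraries, with CD68 falling (4.93 to 0.588 CPM), CD14 rising (0.181 to 0.532 CPM) and PTPRC at the floor. Endothelial markers summed to 20.7 to 22.1 and 19.8 to 22.4 CPM, with VWF falling (5.21 to 0.844 CPM) and CDH5 rising (16.1 to 20.05 CPM). The part of any such cells in the forkhead changes was not tested.

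Genes of epithelial-mesenchymal transition were listed around FOXC1, FOXF and FOXQ1. Of 13 tested genes, 9 rose, 3 fell and 1 did not pass, with 7 rising and 3 falling at least 2-fold, and the median log2 fold change was 1.14 against 0.02 over all genes. Several of these, such as CDH2, TWIST2, TGFB1 and CXCR4, passed the filter only through the knockdown libraries and so had to differ, and the median was 1.84 with no filter and 0.86 with a filter of 1 CPM, so neither the counts nor the median are read as a result about the list. Genes at the floor in control were also set to their lower bounds, which gave the same median of 1.14. The list's members did not move as a block. TWIST2, a mesenchymal repressor, had 0 counts in control and reached 11.4 CPM, at least 83.7-fold higher. CXCR4, a chemokine receptor, went from 0.158 to 3.97 CPM (log2 fold change 4.60), and PDGFRB, a growth factor receptor of mesenchymal cells, from 0.410 to 2.83 CPM (log2 fold change 2.78). In the other direction, TGFB2, a ligand that drives the transition, fell from 12.1 to 0.220 CPM (log2 fold change -5.79), and the matrix protein FN1 fell from 116 to 39.1 CPM (log2 fold change -1.57). VIM, SNAI2, TWIST1, ZEB2 and CDH1 did not pass the filter.

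Within the FOXO subfamily FOXO4 and FOXO3 moved in opposite directions, and the others moved little. FOXO3 (chr6:108559835-108684774, plus strand), the FOXO factor linked to apoptosis and autophagy genes, was at 46.1, 44.2, 48.4 and 47.9 CPM in control libraries and at 18.8, 20.5, 18.9 and 19.6 CPM in knockdown libraries. The groups did not overlap, and 41.7% of the control level was left (log2 fold change -1.26, SE 0.0417, adjusted p = 2.33e-17). FOXO1, the main insulin-responsive FOXO of liver and fat, was at 21.8, 18.3, 19.7 and 18.8 CPM in control and 23.1, 23.7, 23.6 and 21.2 CPM in knockdown libraries. One knockdown library lay below the highest control, and the rise was small (log2 fold change 0.22, SE 0.0671, adjusted p = 0.0024; exact two-sided permutation p = 0.0571, where 0.0286 is the smallest that 4 against 4 libraries can give). FOXO6, a FOXO of brain that shuttles less between nucleus and cytoplasm, was at 23.1 ± 1.18 CPM in control and 21.9 ± 1.05 CPM in knockdown libraries (SD over 4; log2 fold change -0.07, adjusted p = 0.256), a difference within the spread of its libraries.

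The FOXO3B pseudogene, which is a copy of FOXO3, was at 7.51 ± 0.176 CPM in control and 7.51 ± 0.512 CPM in knockdown libraries (log2 fold change 0.00, adjusted p = 0.973), while FOXO3 itself fell. Its transcript shared 73.6% of its 31-base words with FOXO3, and 18.2% of those of FOXO3 were found in FOXO3B, so reads from the shared stretch could have been counted for either. The same 24 helix bases occurred in both. FOXO1B, the other pseudogene, had at most 1 count in any library.

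Divided by exon length so that genes can be compared, the summed level of FOXO1, FOXO3, FOXO4 and FOXO6 was 19.6 ± 0.507 CPM per kilobase in control and 28.2 ± 0.835 in knockdown libraries, or 144% of control. FOXO4 made up 4.01% ± 0.693 of this sum in control and 45.6% ± 0.425 in knockdown libraries (SD, n = 4 each). FOXO3 went from 30.8% ± 0.600 to 8.93% ± 0.254 of it. FOXO6 held the largest share in control, 49.1% ± 2.08, and 32.4% ± 0.854 in the knockdown, and FOXO1 held 16.1% ± 1.35 and 13.0% ± 0.624. The most abundant FOXO transcript per kilobase was therefore FOXO6 in control and FOXO4 in knockdown libraries. The control rank, the shares and the size of the rise in the sum all depend on the lengths used. In plain CPM, FOXO4 went from 2.71 to 44.4 and FOXO3 from 46.7 to 19.5. FOXO1 (19.6 to 22.9 CPM) and FOXO6 (23.1 to 21.9 CPM) moved little. Without division by length, FOXO3 was highest in control, at 46.7 CPM against 23.1 CPM for FOXO6. FOXO4 was highest in knockdown libraries on that scale too, at 44.4 CPM.

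Another list holds kinases, 14-3-3 proteins and deacetylases that regulate FOXO proteins. Of 26 tested, 12 rose, 9 fell and 5 did not pass, again near the 39.4% higher and 37.7% lower over all genes, with a median log2 fold change of 0.04. SGK1, a kinase that phosphorylates FOXO proteins at AKT-type sites, rose from 0.744 to 6.50 CPM (log2 fold change 3.13), and its relative SGK2 fell from 9.31 to 1.75 CPM (log2 fold change -2.41). SKP2, a ubiquitin ligase subunit that targets FOXO1, rose from 55.8 to 174 CPM (log2 fold change 1.64). SIRT2, a deacetylase of FOXO proteins, fell from 37.5 to 12.3 CPM (log2 fold change -1.605).

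Of 22 genes known as FOXO targets, 9 rose, 11 fell and 2 did not pass, beside 39.4% higher and 37.7% lower over all genes, with a median log2 fold change of -0.15. At least 2-fold changes numbered 3 higher and 7 lower, beside 14.9% and 13.4% over all genes. Among these, SESN3 passed the filter only through the knockdown libraries and TRIB2 only through the control libraries, so both had to differ. For that reason the counts are not read as a result about the list. SESN3, a stress-induced inhibitor of TORC1 signalling, rose from 0.351 to 40.2 CPM (log2 fold change 6.81). TRIB2, a pseudokinase that restrains FOXO3, fell from 21.2 to 0.259 CPM (log2 fold change -6.33). PIK3IP1, an inhibitor of phosphatidylinositol 3-kinase, fell from 26.1 to 5.12 CPM (log2 fold change -2.34), and the cell cycle inhibitor CDKN1A from 8.34 to 1.76 CPM (log2 fold change -2.24). In the other direction, IRS2, an adaptor of the insulin receptor, rose from 1.23 to 3.46 CPM (log2 fold change 1.49).

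FOXM1 (chr12:2857681-2877155, minus strand) was the most abundant member per kilobase after FOXA1 in control libraries and moved little. Its level was 142, 142, 151 and 131 CPM in control and 129, 130, 121 and 136 CPM in knockdown libraries. The groups overlapped, and the fall was slight (log2 fold change -0.13, SE 0.0537, adjusted p = 0.00664; exact permutation p = 0.0571). With libraries scaled by total count alone the adjusted p was 0.276. Exons of FOXM1 overlap those of ITFG2 on the opposite strand by 781 bases, and the strand setting of the counting is not given in the sources used here, so reads of the shared bases may belong to either gene.

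Most genes of the FOXM1 target list rose. Of 22 tested, 19 rose, 1 fell and 2 did not pass (39.4% and 37.7% of all genes rose and fell), with a median log2 fold change of 0.58 against 0.02 over all genes; 2 of the rises were at least 2-fold. KIF20A, a kinesin of cytokinesis, rose from 69.8 to 227 CPM (log2 fold change 1.70). AURKB, the kinase of the chromosomal passenger complex, rose from 14.5 to 30.4 CPM (log2 fold change 1.07), and CCNB1, the mitotic cyclin, from 104 to 203 CPM (log2 fold change 0.96). CENPB, a centromere protein, fell from 167 to 101 CPM (log2 fold change -0.73). AURKA and CCNF did not pass the test. The list was chosen with earlier results of these data known, so its counts and median only describe these genes, and FOXM1 activity was not tested.

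A further list holds kinases, cyclins, MuvB complex subunits and other cell cycle factors such as E2F1 and FZR1, not all of which activate FOXM1. Of 18 tested, 9 rose, 8 fell and 1 did not pass, beside 39.4% higher and 37.7% lower over all genes. The median log2 fold change was 0.17. The lower calls were 4 with libraries scaled by total count alone and 4 relative to chromosomal neighbours. CDK2 rose from 48.3 to 158 CPM (log2 fold change 1.71) and CDK1, the mitotic kinase, from 130 to 272 CPM (log2 fold change 1.06). CDK6, a G1 kinase that phosphorylates FOXM1, fell from 67.2 to 2.47 CPM (log2 fold change -4.75), and its partner cyclin CCND1 from 452 to 225 CPM (log2 fold change -1.003).

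**Figure D2:**
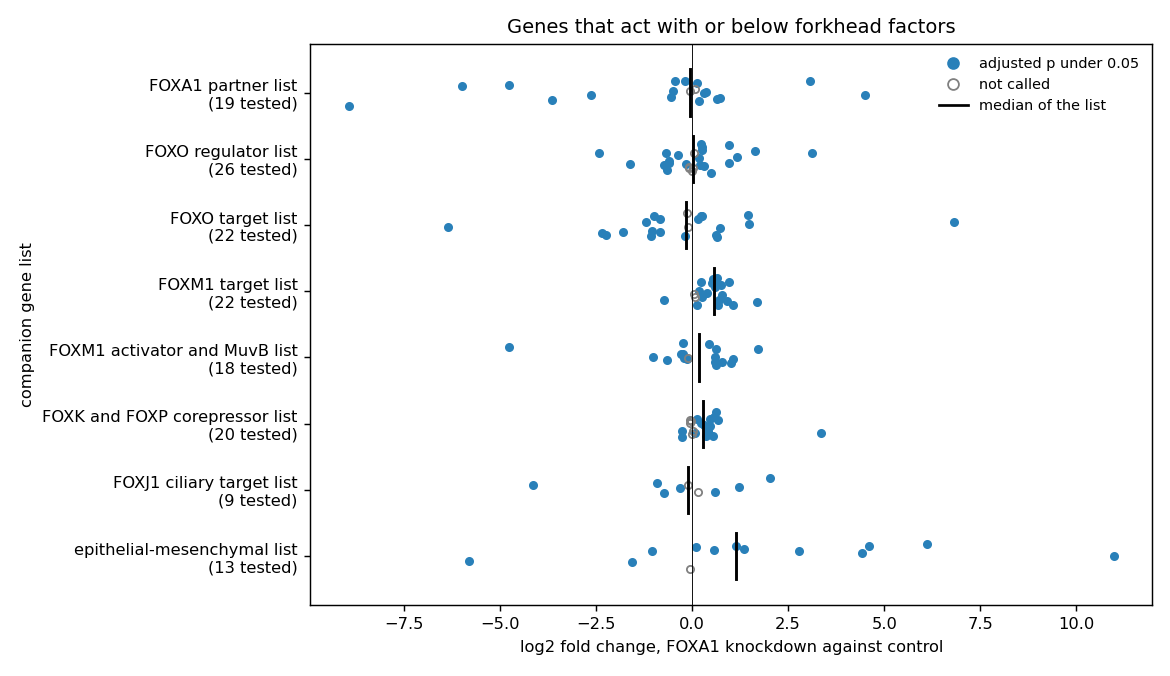
Log2 fold change of every tested gene of the 8 companion lists (points, horizontal axis), 1 list per line, filled where the adjusted p was under 0.05 and open otherwise, with a black line at the list's median; the value of TWIST2, at 0 counts in control, depends on the prior count. The FOXM1 target list lies mostly to the right of 0 with a median of 0.58, and the FOXA1 partner and FOXO target lists spread to both sides.

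The repressor subfamilies FOXP and FOXK fell or divided between paralogues. FOXP4 (chr6:41546426-41602384, plus strand), a repressor of lung and gut epithelium, was at 55.0, 50.6, 58.6 and 51.1 CPM in control and 28.4, 28.7, 26.2 and 29.2 CPM in knockdown libraries. The groups did not overlap and 52.3% was left (log2 fold change -0.93, SE 0.0598, adjusted p = 2.99e-14). FOXP1, a repressor of lymphoid and epithelial cells, was at 8.87, 9.88, 9.30 and 9.98 CPM in control and 6.32, 9.0, 7.83 and 7.72 CPM in knockdown libraries. One knockdown library reached the lowest control, and the fall was smaller (log2 fold change -0.30, SE 0.112, adjusted p = 0.00652; exact permutation p = 0.0571). FOXP2 had 2 to 8 counts and FOXP3, the factor of regulatory T cells, 0 to 8 counts in any library, and neither was tested.

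FOXK1 and FOXK2, paralogues that recruit the SIN3 repressor and regulate autophagy and glycolysis genes, moved in opposite directions. FOXK1 was at 82.4, 80.8, 83.1 and 80.04 CPM in control and 102, 110, 94.0 and 105 CPM in knockdown libraries, with no overlap (log2 fold change 0.33, SE 0.0492, adjusted p = 1.56e-07). FOXK2 was at 163, 161, 166 and 164 CPM in control and 128, 130, 128 and 133 CPM in knockdown libraries, again with no overlap (log2 fold change -0.33, SE 0.0162, adjusted p = 2.25e-09). Summed per kilobase, the pair went from 22.6 ± 0.285 to 20.8 ± 0.681 CPM, 92.3% of control. Of 20 tested corepressors and partners of FOXK and FOXP proteins, 13 rose, 2 fell and 5 did not pass. Over all genes, 39.4% rose and 37.7% fell. The list's median log2 fold change was 0.28, and 6 of its genes were called lower relative to chromosomal neighbours. It too was chosen with earlier results of these data known, so the counts only describe its genes. NFATC2, a factor that binds DNA together with FOXP proteins in T cells, rose from 5.04 to 51.7 CPM (log2 fold change 3.36), and the deacetylase HDAC1 from 105 to 161 CPM (log2 fold change 0.62).

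FOXJ2 and FOXJ3, widely expressed activators, also moved apart. FOXJ2 was at 38.0, 39.98, 37.9 and 36.5 CPM in control and 43.8, 45.2, 42.6 and 46.4 CPM in knockdown libraries (log2 fold change 0.23, SE 0.0382, adjusted p = 0.000137). FOXJ3 was at 108, 119, 114 and 115 CPM in control and 88.6, 94.9, 93.4 and 95.6 CPM in knockdown libraries (log2 fold change -0.29, SE 0.0386, adjusted p = 3.42e-07). Neither pair of groups overlapped. FOXJ1, the master factor of motile cilia, had at most 1 count in any library. Markers of multiciliated cells summed to 33.5 to 38.3 CPM in control and 63.9 to 79.8 CPM in knockdown libraries, most of it CAPS (33.02 and 67.3 CPM), while DNAI1 fell (1.58 to 0.851 CPM) and RSPH1 did not pass the test. Of the 9 tested genes among the ciliary targets of FOXJ1, 3 rose, 4 fell and 2 did not pass. Over all genes, 39.4% rose and 37.7% fell. The list's median log2 fold change was -0.11, with 2 of its genes called lower relative to chromosomal neighbours. CCDC113, a centriolar satellite protein, rose from 2.24 to 9.15 CPM (log2 fold change 2.03).

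Among FOXN genes other than FOXN4, FOXN3, a checkpoint repressor, was at 65.9, 75.5, 73.0 and 71.9 CPM in control and 56.2, 66.4, 60.9 and 65.4 CPM in knockdown libraries. The highest knockdown library exceeded the lowest control, and the fall was small (log2 fold change -0.20, SE 0.0693, adjusted p = 0.00156; exact permutation p = 0.0571). With libraries scaled by total count alone it was not called (adjusted p = 0.0572). FOXN2 was at 20.1 ± 1.74 and 21.8 ± 0.627 CPM (log2 fold change 0.12, adjusted p = 0.0795), and was called higher with that scaling (adjusted p = 0.00529) or without control replicate 1 (adjusted p = 0.0184). FOXN1, the factor of thymic and hair epithelium, had 7, 5, 6 and 4 counts in control and 0, 0, 0 and 1 in knockdown libraries. These did not overlap and amount to at least 1.85-fold lower, at counts below the filter. With no filter the fall was called (adjusted p = 7.6e-05).

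FOXD4 (chr9:116231-118204, minus strand), from a group of recent duplicates, had 11, 21, 14 and 17 counts in control and 8, 8, 5 and 8 in knockdown libraries. The groups did not overlap, and the log2 fold change was -1.12 (SE 0.211, adjusted p = 0.00205), though FOXD4 passed the filter only through its control libraries. FOXD4 shared 37.0% to 63.7% of its 31-base words with FOXD4L copies, so its counts are uncertain. The copy FOXD4L5 had 8, 8, 5 and 4 counts in control and 16, 25, 7 and 14 in knockdown libraries, and these groups overlapped. FOXD4L5 was removed by the filter, but with no filter it was called higher (log2 fold change 1.26, adjusted p = 0.00158), and it also passed and was called without control replicate 1, 2, 3 or 4 or without knockdown replicate 3, at log2 fold changes of 1.07 to 1.46. FOXD2 was at 0.752 ± 0.167 and 0.613 ± 0.161 CPM (log2 fold change -0.28, adjusted p = 0.356).

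The forkhead messenger pool was smaller in the knockdown libraries and differently made up. Summed per kilobase of exon over all members, it was 165, 167, 170 and 163 CPM in control and 119, 123, 117 and 123 CPM in knockdown libraries, 72.4% of control with no overlap. Left without FOXA1, the sum was 118.0 ± 2.65 in control and 119.3 ± 3.10 in knockdown libraries, 101% of control, and the groups overlapped. The direction of that second comparison turned with the setting: it was 97.8% with longest-transcript lengths, 94.4% with no length scaling and 107% with libraries scaled by total count alone.

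FOXA1 held 28.9% ± 0.297 of the pool in control and 0.826% ± 0.0798 in knockdown libraries, going from rank 1 to rank 15. FOXM1 held 17.4% in control and 21.9% in knockdown libraries and came first there per kilobase. These shares and ranks depend on the lengths used. Without division by length, FOXK2 was above FOXM1 in control (163 and 142 CPM) and near it in knockdown libraries (130 and 129 CPM). On that scale FOXK1 (103 CPM) and FOXN3 (62.3 CPM) were above FOXO4 (44.4 CPM) in knockdown libraries. FOXO4 went from 0.473% (rank 14) to 10.7% (rank 4), a level of 0.786 ± 0.133 against 12.9 ± 0.299 CPM per kilobase, and FOXO3 from 3.64% to 2.09%. FOXO4, FOXC1, FOXD1, FOXI3 and FOXN4 together went from 0.961 to 16.9 CPM per kilobase. These members were summed because each was called at least 2-fold higher, so their sum had to rise. FOXO4 alone gave 12.9 of the 16.9. The exon union used for FOXP1, 36714 bases over many isoforms, makes its level per kilobase low.

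**Figure D3:**
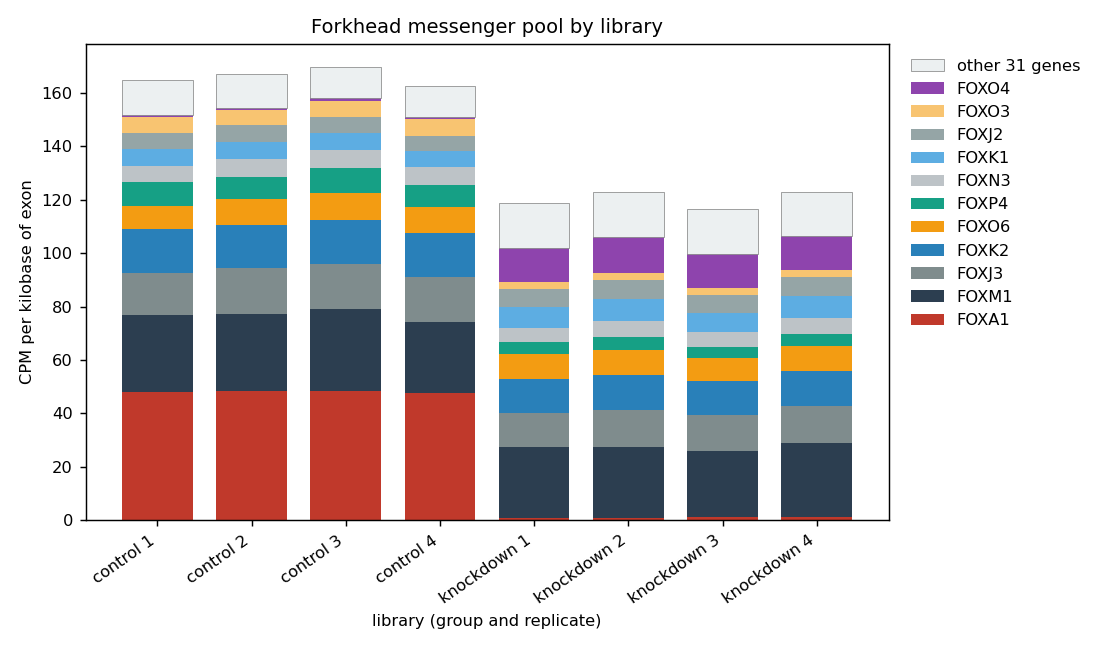
Summed forkhead transcript level in each library, in CPM per kilobase of exon (vertical axis), stacked by gene for the 4 control and 4 knockdown libraries (horizontal axis). The FOXA1 segment nearly disappears in the knockdown libraries, where the total is 117 to 123 against 163 to 170 in control, and the FOXO4 segment becomes visible.

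Forkhead genes are spread over the genome, and each was set beside its 50 nearest tested protein-coding genes on the same chromosome. The neighbours' median log2 fold change was 0.02 for FOXA1, 0.19 for FOXC1, 0.16 for FOXO4, 0.06 for FOXN4, 0.02 for FOXI3, 0.13 for FOXD1, 0.08 for FOXO3 and 0.15 for FOXP4. These medians describe the surroundings only, since single neighbours also vary and 28.3% of all genes changed at least 2-fold. FOXK1 and FOXO1 lay in regions that were lower, with neighbour medians of -0.46 and -0.41, and rose against them. Taken relative to the neighbours, FOXK1 had a log2 fold change of 0.79 and FOXO1 of 0.63. For 4 genes the direction turned on that scale: FOXJ2 to -0.02, FOXN2 to -0.17 (now called, adjusted p = 0.0169), FOXN3 to 0.02 and FOXO6 to 0.02. FOXD4, whose neighbours had a median of -0.51, was no longer called, at -0.62 (adjusted p = 0.074), and FOXJ3 neither, at -0.07 (adjusted p = 0.108). FOXK2, whose neighbours had a median of -0.26, was still called lower but at only -0.08 (adjusted p = 0.0435).

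**Figure D4:**
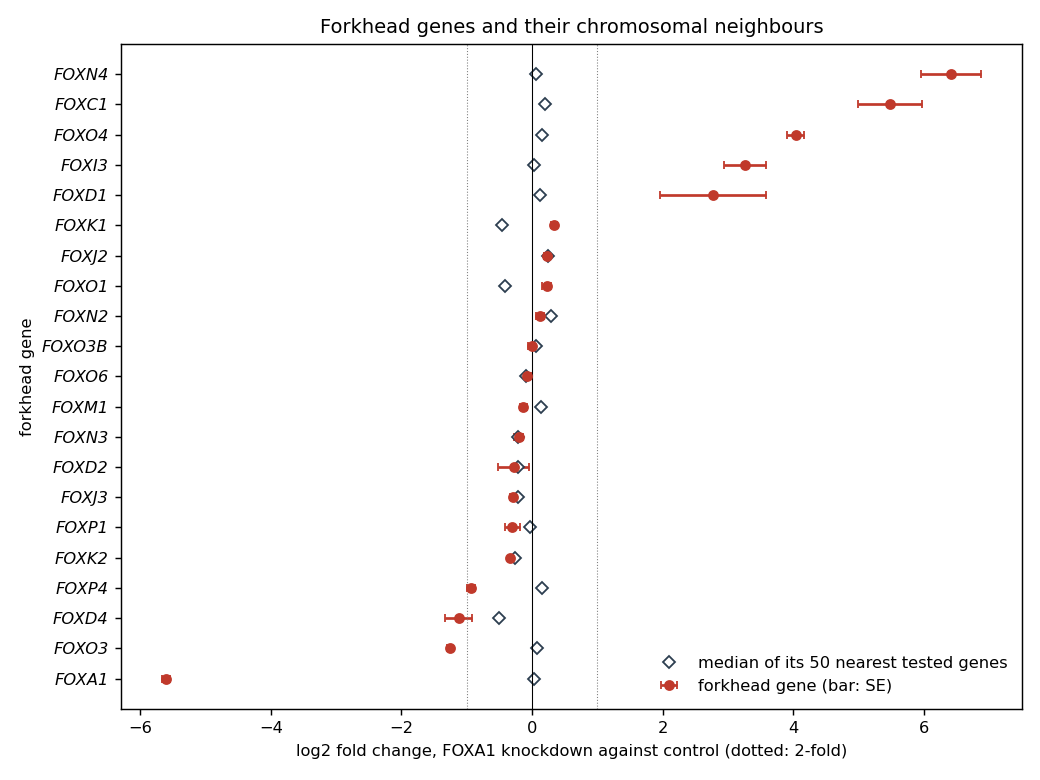
Log2 fold change of each tested forkhead gene (filled points with SE bars, horizontal axis, genes in rows; the value of FOXN4, at the floor in control, depends on the prior count) beside the median of its 50 nearest tested protein-coding genes on the same chromosome (open diamonds), with dotted lines at a 2-fold change. Neighbour medians stay between -0.51 and 0.29 while FOXA1, FOXO4, FOXC1, FOXI3, FOXD1 and FOXO3 lie outside that range.

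Pairs of members within 1000000 bases of each other were few. FOXJ3 and FOXO6 lie 792949 bases apart on chromosome 1, where FOXJ3 fell and FOXO6 had a log2 fold change of -0.07. FOXC2 and FOXL1, 6640 bases apart on chromosome 16, had 0 counts in control, with 1 to 3 and 0 to 1 counts in knockdown libraries. FOXD2 and FOXE3 are 17965 bases apart on chromosome 1 and were low in both groups.

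Promoter windows of 250 bases before to 50 after the most upstream RefSeq start (GRCh38.p14) were found for 33 of the 42 members. The forkhead core motif TGTTTAC, searched on both strands, occurred in 1 of these, and in 3.42% of all 35116 windows. The variant TGTTTGC, which cannot match the same bases on the same strand, occurred in 4 members (FOXA1, FOXD4, FOXD4L3 and FOXD4L6), and in 3.89% of all windows. FOXD4, FOXD4L3 and FOXD4L6 are duplicates whose transcripts share sequence, so their matches may not be separate cases. Each member had 1 window, while the 35116 windows came from 27305 genes, so the 2 sets are not built alike. The stretches that hold the match are shown for FOXA1, the targeted gene, and FOXO4, the member that reached the highest CPM among the 5 that rose at least 2-fold. Capitals mark the motif, read here as its reverse complement, on the gene's strand.
FOXA1, chr14:37595445-37595499, minus strand: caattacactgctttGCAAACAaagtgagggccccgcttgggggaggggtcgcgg
FOXO4, chrX:71095801-71095880, plus strand: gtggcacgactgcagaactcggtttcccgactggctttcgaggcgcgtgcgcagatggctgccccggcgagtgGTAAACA

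In FOXA1 the match began 235 bases before the RefSeq start, and in FOXO4 it began 24 bases after it. The gene positions printed further above come from GENCODE and differ from the RefSeq starts. By those positions the FOXA1 match lies inside the gene (chr14:37589984-37596059), and the FOXO4 match lies before the gene's first base (chrX:71096197). The placement therefore depends on the annotation. The members' windows held a median of 25 CpG dinucleotides and those of tested members 34, against 14 in all windows. These matches describe the letters in the windows only.

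The 21 members that did not pass the filter had at most 25 counts in any library, and 11 of them at most 3. Their counts made up 0.216% of all forkhead counts. FOXL2, a factor of ovarian granulosa cells, had 0 counts in control and 2, 4, 0 and 0 in knockdown libraries. With no filter FOXL2 and FOXC2 were called higher (adjusted p = 0.031 and 0.0107). FOXH1 had 1 to 6, FOXI1 2 to 5, and FOXA3, FOXE3, FOXJ1, FOXL1, FOXO1B and FOXR1 at most 1 count in any library. FOXC2, FOXD3 and FOXI2 had 0 counts in control and at most 3 in any knockdown library. FOXD4L1, FOXD4L3, FOXD4L4 and FOXD4L6 had 0 to 7 counts and share sequence with one another.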

How the data were processed

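The authors deposited a table of whole-number counts per gene for 8 libraries, used as deposited. The submitters' processing notes name FastQC, Salmon 1.9, DESeq2 3.16 and hg38; the annotation release and strand setting are not given in the sources used here. Members, companion lists and tests were chosen with earlier results of these data known. Counts were tested with edgeR 4.0.16 (R 4.3.3): filterByExpr (minimum 10 counts), TMM scaling, quasi-likelihood fit with robust estimation, and Benjamini-Hochberg adjustment over all 16430 genes. The SE of a log2 fold change comes from log2 CPM with 0.5 added to each count. Permutation tests were exact and two-sided over 70 divisions of the libraries. Lengths are exon unions from GENCODE. Genes named from companion lists were the up to 4 with the largest change among those called with a mean of at least 50 counts in a group, and up to 2 against the list's majority; not all are printed. On simulated counts, 82 of 100 genes changed 2-fold and 94 of 100 changed 4-fold were recovered, with 16 unchanged genes called. Alternatives were DESeq2 1.42.0, limma voom 3.58.1, other scalings, filters and lengths, a regional shift, a replicate block and leaving out each library.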

Additional observations from a re-analysis of the deposited data

How the results depend on the processing

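Counts of forkhead genes called ran from 7 to 12 higher and 7 to 10 lower over the alternatives; those at least 2-fold higher were 9 with no filter on low counts, when FOXA2, FOXC2, FOXD4L5 and FOXL2 were added. The same replicate numbers in both groups share only a number: correlations of same-numbered deviations were 0.088, 0.168, -0.035 and 0.066. With the replicate block 12453 genes were called, 8 forkhead genes higher and 9 lower, and 12 corepressors higher where 13 were without it; it moved no other count of forkhead or list genes called. Relative to chromosomal neighbours, FOXJ2 was at -0.0174, FOXN2 at -0.1694, FOXN3 at 0.0201 and FOXO6 at 0.0174. With library size only, FOXO3B was at 0.0801, FOXO6 at 0.0115, FOXN2 at 0.205 (called), FOXN3 at -0.12 (not called) and FOXM1 at -0.05 (not called). FOXO3B also turned at 0.0017 with a filter of 1 CPM, and ran from -0.0456 to 0.0293 with each library left out (0.0106 without control replicate 2; 0.0057, 0.0293 and 0.0032 without knockdown replicates 1, 2 and 4). FOXN2 was called without control replicate 1, at 0.17. List medians with library size only were 0.0314 for FOXA1 partners, 0.1216 for FOXO regulators, -0.0663 for FOXO targets, 0.6631 for FOXM1 targets, 0.2534 for MuvB, 0.3667 for corepressors and 1.2212 for the epithelial-mesenchymal list. Relative to neighbours they were 0.0161, 0.6374 and 0.2524 for FOXO regulators, FOXM1 targets and corepressors, and 1.2604 for the epithelial-mesenchymal list, which was 1.8413 with no filter and 0.8642 with 1 CPM. Lower calls in MuvB were 4 with library size only and 4 relative to neighbours, and relative to neighbours 6 for corepressors and 2 for ciliary targets. Leaving out each library gave medians of -0.1276 to -0.0561 (FOXA1 partners), -0.0018 to 0.072 (FOXO regulators), 0.5363 to 0.6055 (FOXM1 targets), -0.3206 to 0.034 (ciliary targets) and 1.0458 to 1.2364 (epithelial-mesenchymal list). The whole pool was 69.0% of control with longest transcripts, 76.5% with no length scaling and 76.7% with library size only; without FOXA1 it was 97.8%, 94.4% and 107.1%. With longest transcripts and with no length scaling, control shares were 30.1% and 19.4% for FOXA1, 18.3% and 14.3% for FOXM1 and 0.368% and 0.274% for FOXO4, and knockdown shares 24.1% and 17.1% for FOXM1 and 8.76% and 5.87% for FOXO4. The cause of these shifts was not tested. Genes with few counts, near the floor of 3, are limited by depth.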

Other observations

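Noncoding genes named after forkhead neighbours were mostly too low to test. FOXD2-AS1, which lies beside FOXD2, was at 22, 21, 33 and 21 counts in control and 44, 50, 37 and 29 in knockdown libraries (log2 fold change 0.70, adjusted p = 0.00466), with 1 knockdown library below the highest control, while FOXD2 did not pass the test. FOXN3-AS1 had 43, 55, 40 and 52 counts in control and 28, 30, 34 and 40 in knockdown libraries (log2 fold change -0.53, adjusted p = 0.0119), in the same direction as FOXN3. FOXP4-AS1 had 5 to 15 counts in any library and was not tested. Overlapping reads from the opposite strand cannot be told apart where the counting did not use strand.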
